A study of Mus musculus with 2 samples.

Results

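The Slit ligands, their Robo receptors and the Srgap proteins that act below Robo were described in C57BL/6J mouse embryos, in central nervous system tissue taken at embryonic day 14. The 10 genes (Slit1, Slit2, Slit3, Robo1, Robo2, Robo3, Robo4, Srgap1, Srgap2 and Srgap3) were taken by symbol, mapped from the gene identifier, out of 43346 genes in the mm10 tables. The study holds 1 group with 2 biological replicates, each 1 library from pooled male and female littermates, so no condition was compared and no p-value was computed. The libraries are stranded, paired-end and made from rRNA-depleted poly(A)+ RNA above 200 nucleotides, per the labels. Total expected counts were 102727538 in replicate 1 and 138440954 in replicate 2.

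Slits are large secreted proteins that repel growing axons that carry Robo receptors, which are transmembrane proteins of the immunoglobulin superfamily. In the embryonic cord and hindbrain the floor plate makes Slit, and commissural axons cross the midline once and are kept from crossing back. Srgaps are GTPase-activating proteins with an F-BAR domain that bind the inner tail of Robo and act on small GTPases, which set the turnover of actin in the growth cone.

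Markers of the labelled tissue were present: all 6 neuronal markers and all 6 radial glia markers reached 1 TPM in both replicates. TPM is a level per length and library. The 2 libraries differed in non-neural tissue. The summed level of 6 skeletal muscle markers was 402.19 TPM in replicate 1 and 8.02 TPM in replicate 2, that of 6 cartilage markers was 727.67 and 87.77 TPM, and that of 5 skin markers was 127.39 and 13.66 TPM. Summed levels were 912.03 and 386.19 TPM for 6 markers of meninges and fibroblasts and 129.72 and 41.94 TPM for 4 markers of peripheral ganglia. Replicate 2 was at least 2-fold lower for 24 of these 27 genes, beside 3.95% of the 14340 genes with a mean count of at least 200. The 6 telencephalon markers went the other way, with summed levels of 371.27 and 678.72 TPM. At least 2-fold higher in replicate 2 were 2 of them, beside 0.286% of those 14340 genes. The 6 markers of hindbrain and cord position summed to 113.14 and 135.38 TPM and were split. Hoxc8 was at 0.02 and 4.99 TPM and Hoxb8 at 23.6 and 61.03 TPM, while Hoxa2 was at 13.66 and 6.39 TPM. The part of these tissues in the values below was not tested unless a value is given.

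All 10 genes were detected, meaning at least 1 TPM in both replicates, beside 34.6% of all genes and 63.4% of protein-coding genes. Robo2 and Srgap3 were listed highest and Slit3 and Robo4 lowest. The Robo genes summed to 157.21 TPM in replicate 1 and 163.03 TPM in replicate 2, the Srgap genes to 139.29 and 125.19 TPM, and the Slit genes to 60.84 and 51.87 TPM. The 4 receptor genes thus stood at 2.58 and 3.14 times the summed level of the 3 ligand genes. As shares of the 10 genes' TPM, the receptors held 46.0% ± 2.79, the Srgaps 37.9% ± 1.53 and the ligands 16.1% ± 1.25 (SD, n = 2).

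**Figure D1:**
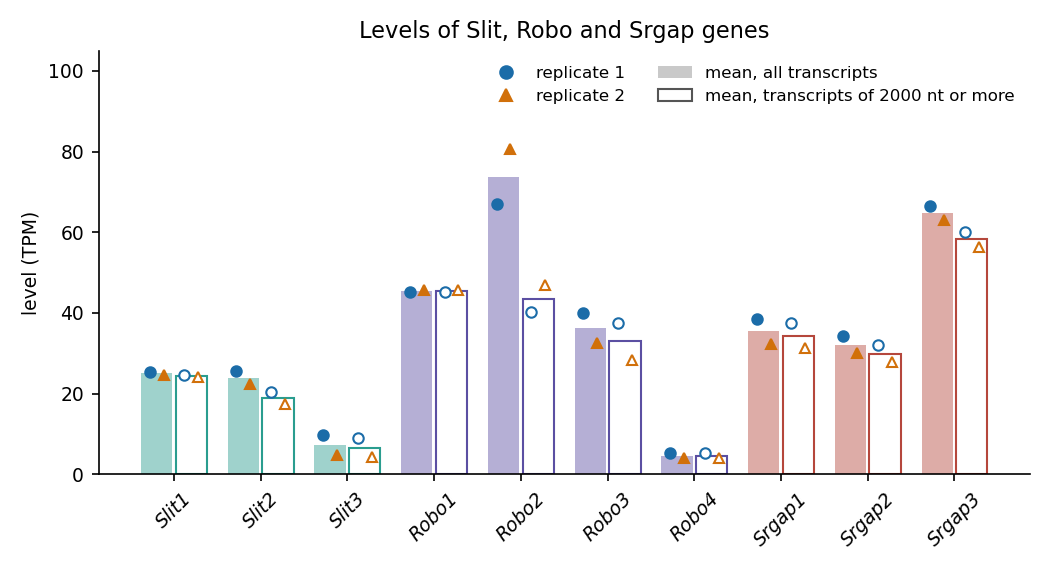
Level of each gene in TPM (vertical axis), with filled bars for the mean over all transcripts and open bars for the mean over transcripts of at least 2000 nucleotides. Circles are replicate 1 and triangles replicate 2. Robo2 averages 73.7 TPM over all transcripts and 43.5 TPM over the long ones, beside 45.5 TPM for Robo1 on both.

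Among the ligands, Slit1 (mm10 chr19:41600257-41743665, minus strand) was listed at 25.46 TPM in replicate 1 and 24.73 TPM in replicate 2, from 8384 and 10968 expected counts. Slit2 (chr5:47983138-48307733, plus strand) was listed at 25.58 and 22.37 TPM, from 7463 and 8404 counts. Over all transcripts the ranges of Slit1 and Slit2 overlapped, and neither was the higher in both replicates. Over transcripts of at least 2000 nucleotides Slit1 was the higher in both, at 24.69 and 24.24 TPM against 20.4 and 17.51 TPM. Reads spliced over introns had a median per intron of 419.5 for Slit1 and 224 for Slit2. The deposited mm9 values in RPKM, also a level per length, were split, at 3.01 and 2.93 for Slit1 and 2.39 and 3.53 for Slit2. Slit3 (chr11:35121224-35708507, plus strand) was at 9.80 and 4.77 TPM, from 2872 and 1805 counts, below Slit2 in both replicates.

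Slit3 was the member whose replicates differed most. The log2 ratio of replicate 2 over replicate 1, on counts scaled by the trimmed mean of M-values (TMM), was -1.08 for Slit3, and 3.43% of the 14340 genes with a mean count of at least 200 had a lower ratio. It was the 1 member of 10 at least 2-fold apart. Of those 14340 genes, 3.95% were at least 2-fold lower in replicate 2, 0.286% at least 2-fold higher and 4.24% either way, so 1 of 10 is near that background. On the log2(TPM + 1) scale the ratio of Slit3 was -0.90, short of 2-fold. The marker lists named above that were lower in replicate 2 moved in the same direction as Slit3, and their part in its ratio was not tested. In bulk tissue fewer cells of a type and less RNA per cell cannot be told apart.

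The other ratios were smaller. Robo3 had a log2 ratio of -0.39, Robo4 of -0.36, Srgap1 of -0.26, Slit2 of -0.24, Srgap2 of -0.18, Srgap3 of -0.09 and Slit1 of -0.03. Robo1 was at 0.02 and Robo2 at 0.21. Thus 8 of the 10 genes were lower in replicate 2, and the median of the 10 was -0.21, beside a median of 0.02 over the 14340 genes. Of those 14340 genes, 40.6% had a lower ratio than Slit1 and 49.7% a lower ratio than Robo1, the 2 members nearest to no change. With 1 library for each replicate, these ratios describe 2 libraries and have no further check.

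**Figure D2:**
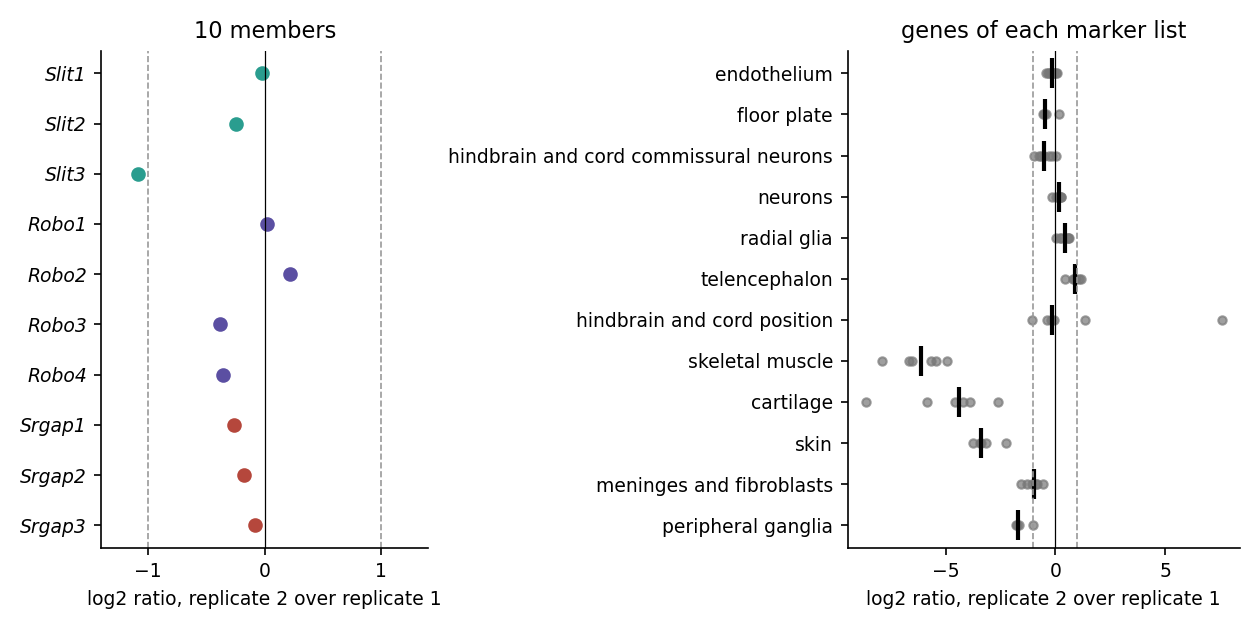
Log2 ratio of replicate 2 over replicate 1 (horizontal axes) for the 10 genes on the left and for the genes of each marker list on the right, where black ticks are list medians. Dashed lines mark 2-fold. Slit3 is the 1 member past the line, at -1.08, and the skeletal muscle, cartilage and skin lists lie far to the left.

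Among the receptors, Robo1 (chr16:72308306-73046095, plus strand) was listed at 45.11 TPM in replicate 1 and 45.81 TPM in replicate 2, from 21032 and 28447 counts. Robo2 (chr16:73891839-74411825, minus strand) was at 66.94 and 80.53 TPM, from 16730 and 25863 counts, and so had fewer counts but the higher listed level. Both are the main axonal receptors for Slit in the mammalian brain and cord. The genes lie end to end on chromosome 16, 845.7 kb apart, with no other protein-coding gene between them in GENCODE M21.

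In TPM, the place of Robo2 above Robo1 in both replicates rested on short transcripts. Robo2-205, an annotated transcript of 519 nucleotides, held 28.5% of the gene's TPM in replicate 1 and 33.1% in replicate 2, but 2.32% and 2.88% of its expected counts. Robo2-204, of 535 nucleotides, held 11.4% and 8.70% of the TPM. Over transcripts of at least 2000 nucleotides, Robo2 was at 40.23 TPM in replicate 1 and 46.86 TPM in replicate 2, and Robo1 at 45.11 and 45.81 TPM. The order then differed between the replicates. Reads spliced over introns are not scaled by length, and their median per intron was 831 for Robo2 and 1134.5 for Robo1. On mm9, Robo2 was instead the higher in both deposited values, at 9.51 and 8.17 RPKM against 5.35 and 5.31 RPKM for Robo1. Which receptor gene is the higher is therefore not settled by these tables.

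Robo3 (chr9:37415669-37433246, minus strand), the receptor that commissural axons need to cross the midline, was listed at 39.94 TPM in replicate 1 and 32.63 TPM in replicate 2, from 8814 and 8977 counts. It was below Robo1 in both replicates, and its range overlapped that of Srgap1. The 7 markers of hindbrain and cord commissural neurons summed to 113.46 and 96.23 TPM, with a median log2 ratio of -0.52, beside -0.39 for Robo3. Lhx9, the highest of these markers, was at 0.02, and the others were lower in replicate 2. The 4 floor plate markers summed to 38.55 and 28.42 TPM.

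Robo4 (chr9:37401897-37415115, plus strand), the Robo of blood vessel endothelium, was the lowest of the 10, at 5.22 TPM in replicate 1 and 4.06 TPM in replicate 2, from 1191 and 1235 counts. Its level was still above 15.4% of the protein-coding genes detected in both replicates, beside 82.9% for Robo2. Its range overlapped that of Slit3. All 9 endothelial markers were detected, and they summed to 354.89 and 318.29 TPM, with Egfl7 highest at 153 ± 15.9 TPM and Flt1 lowest at 4.30 ± 0.120 TPM (SD, n = 2). Robo3 and Robo4 also lie end to end, with 553 nucleotides between the ends of their annotations on opposite strands.

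Of the GTPase-activating proteins, Srgap3 (chr6:112717971-112947266, minus strand) was highest in both replicates, at 66.51 TPM in replicate 1 and 62.93 TPM in replicate 2. It had the most counts of all 10 genes, 32079 and 40271. Srgap1 (chr10:121780991-122047315, minus strand) was at 38.54 and 32.29 TPM. Srgap2 (chr1:131285251-131527352, minus strand), which acts in the branching and migration of cortical neurons, was at 34.24 and 29.97 TPM. The ranges of Srgap1 and Srgap2 overlapped, while Srgap1 was the higher in each replicate, and Srgap3 was above both.

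The partners of the pathway were nearly all present. Of 39 partner genes in 4 lists, 38 were detected, beside 63.4% of all protein-coding genes. Only 1 of the 39 was at least 2-fold lower in replicate 2, which is near the 3.95% of the 14340 genes. Among 9 genes of the cell surface and heparan sulfate, which holds Slit at the membrane, the median was 31.24 TPM in replicate 1 and 27.87 TPM in replicate 2. The syndecan Sdc3 was highest there, at 112 ± 11.9 TPM, and the syndecan Sdc4 lowest, at 6.83 and 2.82 TPM, with a log2 ratio of -1.46.

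Of 8 genes for Robo trafficking and processing, 7 were detected. Prrg4, a counterpart of the fly protein Commissureless, which keeps Robo off the surface of axons, was under the threshold, at 0.46 TPM in replicate 1 and 0.23 TPM in replicate 2, from 46 and 45 counts. All 10 co-receptors and other ligands were detected, from Unc5b, a netrin receptor, at 6.61 ± 0.926 TPM to the cadherin Cdh2 at 121 ± 16.2 TPM. All 12 intracellular effectors were detected, from the Ras exchange factor Sos1 at 11.2 ± 0.148 TPM to the GTPase Cdc42, a substrate of Srgap1, at 361 ± 8.10 TPM (SD, n = 2 throughout).

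In the deposited transcript tables, 5 of the 10 genes had 1 transcript with over 50% of the gene's TPM as a mean of the replicates. The same transcript led in both replicates for all 10. Robo1 has a single transcript in these tables, Robo1-201. Srgap1-201 held 90.7% in replicate 1 and 92.1% in replicate 2, Slit3-201 90.9% and 87.3%, Slit1-203 78.4% and 79.2%, and Srgap2-201 70.1% and 71.5%. Second transcripts with at least 10% were Slit1-201, at 18.5% and 18.8%, and Srgap2-209, at 20.6% and 18.8%.

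The other 5 genes were split. Slit2-202 held 40.7% and 37.4%, while Slit2-217 held 10.7% and 10.4%. Slit2-207, typed as a retained intron in M21, held 10.5% and 10.6%. Besides its 2 short transcripts, Robo2 had Robo2-203 at 25.3% and 24.1%, Robo2-202 at 20.8% and 19.1% and Robo2-201 at 10.5% and 11.3%. Robo4-202 held 41.6% and 44.2%, Robo4-201 39.7% and 42.9%, and Robo4-203 17.3% and 11.4%. Srgap3-202 and Srgap3-203 were nearly level, at 45.9% and 46.5% against 43.9% and 43.0%.

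Robo3 stood apart from the other members in its transcript types. Robo3-206, typed as a retained intron, led with 40.0% in replicate 1 and 38.0% in replicate 2, ahead of the protein-coding Robo3-202 at 35.2% and 30.7%. Transcripts not typed as protein-coding held 64.6% and 69.1% of the Robo3 TPM in all. Slit2 came next, with 41.9% and 41.8%, and each of the other 8 genes was at or under 12.7% in both replicates. By expected counts the leading transcript changed for 2 genes, to Robo2-203 with 50.8% and 50.1% and to Robo3-202 with 45.6% and 42.6%, and 8 genes then had 1 transcript with over 50%.

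**Figure D3:**
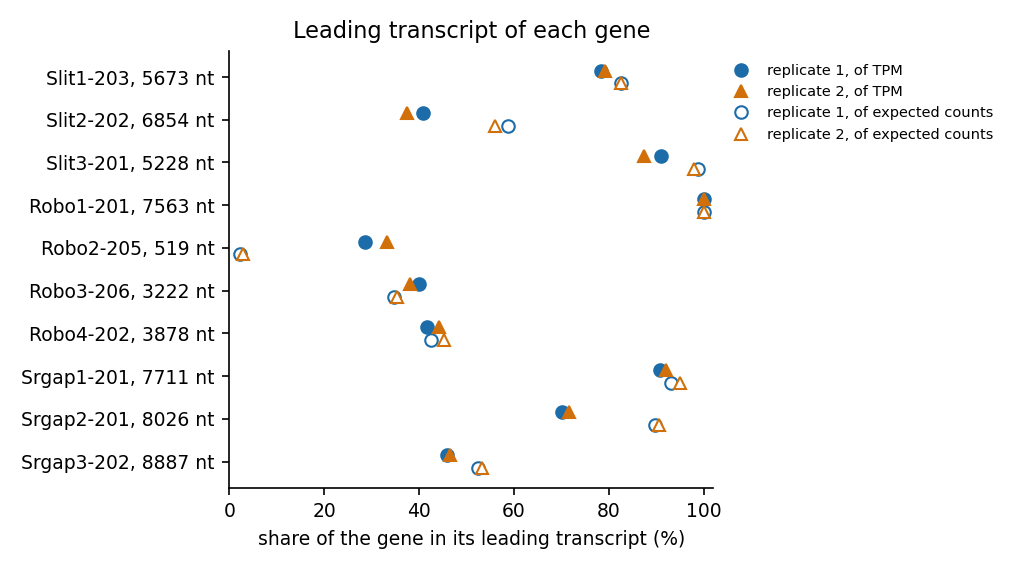
Share of each gene in its leading transcript (horizontal axis, percent), by TPM in filled symbols and by expected counts in open symbols, with circles for replicate 1 and triangles for replicate 2. Labels give the transcript and its length. Robo2-205 leads Robo2 by TPM with 28.5% and 33.1% but holds under 3% of the counts.

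Splicing was read more directly from the mm9 junction table, which counts reads over each splice junction in 2 fields. No label matches the fields to the numbered replicates, so they are called field 1 and field 2. The 10 genes had 66289 reads in field 1 and 84347 in field 2 over 1316 junctions, 314 of them with at least 10 reads. Median reads per intron ran from 96 in Robo4 to 1134.5 in Robo1. Inclusion of an exon is the mean of the reads on its 2 sides over that mean plus the reads that skip it, with exact Clopper-Pearson 95% intervals that cover counting error only.

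An internal exon was called alternative where its inclusion lay between 5% and 95% on at least 20 reads. Skipping was counted only between an exon's own neighbours. Exons used in place of each other, such as the 2 forms of Srgap3 exon 12 described below, are therefore not among those called. Of annotated internal exons in the 10 genes, 5 of 271 were alternative, or 1.85%, beside 5.35% of 138161 exons over all genes. Of exons over 30 nucleotides, 2 of 262 were alternative, or 0.763%, beside 5.11%. Of exons up to 30 nucleotides, 3 of 9 were alternative, or 33.3%, which is near the 31.2% of all 1247 such exons. A further 2 alternative exons of Robo2 were not in the Ensembl release 65 annotation of the mm9 tables but are in GENCODE M21. The lengths of all 7 are multiples of 3.

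The 4 shortest are shown because each adds a few codons to a ligand or receptor. Capitals mark the alternative exon, and 12 bases of the neighbouring exons stand on each side. They were read 5′ to 3′ from GENCODE M21 transcripts on mm10: Slit2 at chr5:48220967-48220990 and chr5:48263641-48263667 and Robo1 at chr16:72993667-72993693, all on the plus strand, and Robo2 at chr16:74008775-74008786 on the minus strand.
Slit2 24-nt exon: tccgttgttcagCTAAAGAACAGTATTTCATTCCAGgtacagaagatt
Slit2 27-nt exon: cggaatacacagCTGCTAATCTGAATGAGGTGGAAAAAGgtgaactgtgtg
Robo1 27-nt exon: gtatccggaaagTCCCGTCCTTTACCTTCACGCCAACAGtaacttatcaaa
Robo2 12-nt exon: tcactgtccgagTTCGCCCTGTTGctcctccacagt

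Both Slit2 exons were skipped more often than included. The 24-nucleotide exon was included at 32.5% (interval 25.3 to 40.0%), from 59 and 50 reads on its sides and 113 reads that skip it, with 35.5% in field 1 and 28.9% in field 2. The 27-nucleotide exon was included at 40.7% (36.2 to 45.2%), from 171, 222 and 286 reads, with 39.7% and 41.6% in the fields. In M21 the 24-nucleotide exon is in Slit2-202, Slit2-217 and Slit2-218, and the 27-nucleotide exon in Slit2-217 alone. The transcript shares given above thus put more TPM on the 24-nucleotide exon than on the 27-nucleotide exon. Junction reads put its inclusion lower instead, with overlapping intervals, and the cause was not tested. The Robo1 exon was mostly included, at 91.1% (89.7 to 92.4%), with 89.2% and 92.5%.

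Robo2 held 4 of the 7 alternative exons. Its 12-nucleotide exon was included at 44.2% (41.1 to 47.3%), with 41.2% in field 1 and 46.1% in field 2. An exon of 273 nucleotides was included at 41.7% (39.1 to 44.4%) and one of 183 nucleotides at 15.2% (13.1 to 17.5%). An exon of 126 nucleotides was included at 69.9% (67.7 to 72.1%), but its sides held 614 and 1806 reads, and those of the 273-nucleotide exon held 395 and 769, so these 2 values are less certain than their intervals. In no exon did the fields fall on opposite sides of 50%.

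**Figure D4:**
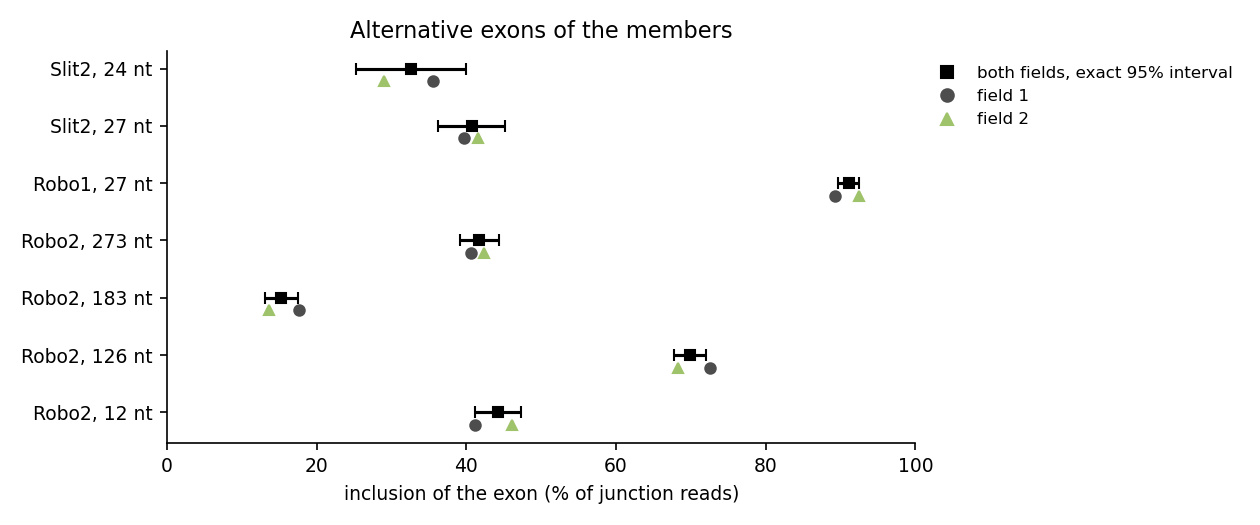
Inclusion of the 7 alternative exons (horizontal axis, percent of junction reads), with squares and exact 95% intervals for both fields together and circles and triangles for field 1 and field 2. The Robo1 exon lies at 91.1%, the 183-nucleotide exon of Robo2 at 15.2%, and the others between 32.5% and 69.9%.

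Robo1 joined 2 upstream exons to the second exon of Robo1-201 at similar rates. Of 1216 reads spliced into its second exon, 638 came from the first exon of Robo1-201, or 52.5% (49.6 to 55.3%), and 545 from an exon farther upstream, or 44.8% (42.0 to 47.7%). The upstream exon had 43.6% in field 1 and 45.7% in field 2. Another 2 upstream splice sites had 7 and 16 reads. Junctions that enter these upstream exons from earlier ones were not examined, so whether they begin a transcript was not tested. The intron behind the exon with 545 reads spans 178342 nucleotides, the same length as behind the first coding exon of Robo1-206 in GENCODE M21. That transcript is not in the deposited transcript tables, which give all of Robo1 to Robo1-201.

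Capitals show the coding part of the first coding exon that M21 gives each transcript, followed by 12 shared bases of the next exon. They are shown because the 2 exons put different coding bases before the shared exon. Robo1-206 lies at chr16:72563700-72563783 and Robo1-201 at chr16:72664140-72664194 on mm10, both on the plus strand. M21 marks the start of Robo1-206 as not found, so its coding part may be longer.
Robo1 first coding exon of Robo1-206: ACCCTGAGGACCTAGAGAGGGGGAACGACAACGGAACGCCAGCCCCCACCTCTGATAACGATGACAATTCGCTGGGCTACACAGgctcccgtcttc
Robo1 first coding exon of Robo1-201: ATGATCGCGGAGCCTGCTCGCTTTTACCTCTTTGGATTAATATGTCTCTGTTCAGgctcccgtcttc

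In mouse, Robo3 is known to be made in 2 forms: Robo3.1, on axons before they cross, and Robo3.2, on axons that have crossed, which keeps the intron between exons 26 and 27 and so ends in other amino acids. The spliced and the retained form are shown here with the last 30 bases of exon 26, on the minus strand of mm10, because this intron decides between them. In the spliced form capitals mark the first 30 bases of exon 27 (chr9:37416891-37417355 with the intron left out). In the retained form (chr9:37417195-37417355) capitals mark the stop codon, reached after 128 bases of the intron.
Robo3 exon 26 joined to the next: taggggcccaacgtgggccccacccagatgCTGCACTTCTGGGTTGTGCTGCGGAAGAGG
Robo3 exon 26 read into intron 26: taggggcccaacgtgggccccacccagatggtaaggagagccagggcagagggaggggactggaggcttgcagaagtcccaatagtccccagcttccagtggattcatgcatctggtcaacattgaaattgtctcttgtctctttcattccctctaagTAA

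Fewer reads were spliced over this intron than over its neighbours. Intron 26, of 405 nucleotides, had 249 spliced reads, 123 in field 1 and 126 in field 2. Intron 25 before it had 892 reads and intron 27 after it had 706. Intron 26 thus stood at 31.2% of the mean of its neighbours, with 31.4% in field 1 and 31.0% in field 2. No interval is given, because the reads of an intron are not a part of those of its neighbours.

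That was the lowest of the 25 introns of Robo3 with a neighbour on both sides, whose median was 94.4%. Introns 14, 8 and 20 followed at 36.4%, 38.5% and 40.4%, and in field 2 intron 20 was lower still, at 30.2%. Of 226 such introns in the other members, 2 were at or below the value of intron 26. The deposited transcript tables gave another proportion, as a share of the TPM of transcripts that reach this intron. Those spliced at it held 80.1% in replicate 1 and 79.6% in replicate 2. The 3 spliced ones are Robo3-202, Robo3-201 and Robo3-206, which is typed as a retained intron but does not keep intron 26. The 2 that keep it are Robo3-205 and Robo3-203. Reads inside the intron could not be set against these shares, because the contig table covers it with 1 contig that also spans other introns. Whether the difference from the neighbours is retention of intron 26 was therefore not tested.

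**Figure D5:**
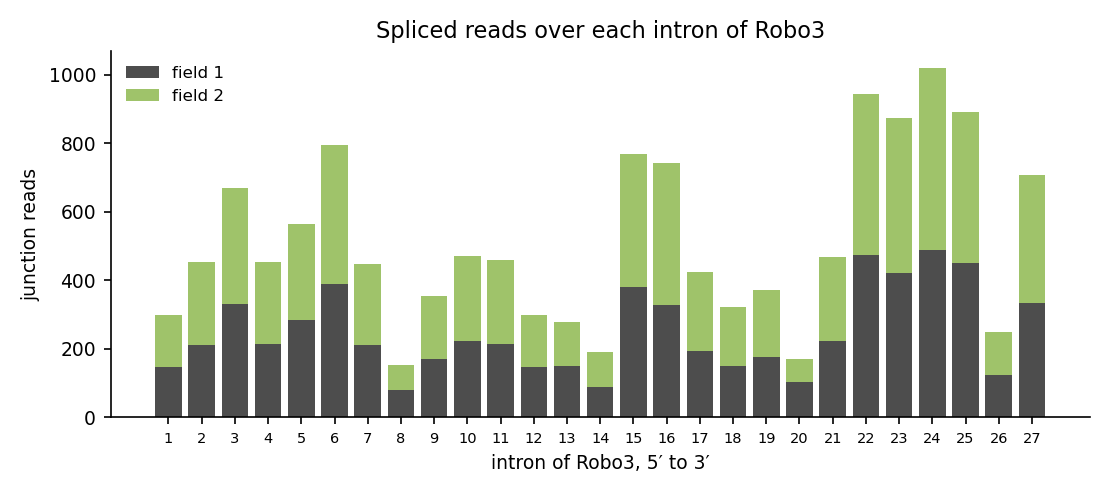
Spliced reads over each of the 27 introns of Robo3 (vertical axis, reads), in order from 5′ to 3′, with field 1 and field 2 stacked. Intron 26 has 249 reads between 892 and 706, and introns 8, 14 and 20 are low as well.

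Srgap3 has 2 forms of exon 12 that are not joined to each other: an exon of 103 nucleotides in Srgap3-202 and one of 31 nucleotides in Srgap3-203. Both are coding in M21. They are shown with capitals for the exon and 12 shared bases on each side, at chr6:112754571-112754673 and chr6:112750381-112750411 on the minus strand of mm10.
Srgap3 exon 12 of Srgap3-202: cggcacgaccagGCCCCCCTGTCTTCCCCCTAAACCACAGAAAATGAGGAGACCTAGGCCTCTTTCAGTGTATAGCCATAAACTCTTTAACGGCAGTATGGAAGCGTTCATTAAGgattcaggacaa
Srgap3 exon 12 of Srgap3-203: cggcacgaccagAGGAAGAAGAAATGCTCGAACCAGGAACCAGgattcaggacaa

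Junction reads favoured the 31-nucleotide exon. On the upstream side the 103-nucleotide exon had 128 reads and the 31-nucleotide exon 288, so the longer one held 30.8% (26.4 to 35.5%), with 27.04% in field 1 and 33.1% in field 2. On the downstream side it had 72 reads against 336, or 17.6% (14.1 to 21.7%), with 15.8% and 19.3%. Only 2 reads skipped both. The transcript tables instead put 51.1% in replicate 1 and 51.9% in replicate 2 of the TPM of these 2 transcripts in Srgap3-202, outside both intervals. These transcripts are 8887 and 8300 nucleotides long and so differ in more than exon 12. Their shares therefore do not measure the use of that exon alone. The cause of the difference between these shares and the junction reads was not tested.

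Robo2 also ends in 2 ways, through a pair of annotated splice donors 9 nucleotides apart before the last exon. The donor that leaves out the 9 bases had 453 of 1421 reads, or 31.9% (29.5 to 34.4%), with 30.9% in field 1 and 32.5% in field 2. The 9 bases are shown in capitals, at chr16:73897007-73897015 on the minus strand of mm10, because the stop codon of Robo2-202 begins at the last of them.
Robo2 9-nt extension: gacagtttacagGTGAATTGTag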

How the data were processed

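Stranded paired-end poly(A)+ RNA-seq of 2 replicates of 1 group was used. On mm10, the values deposited for each gene and each transcript are expected counts, FPKM and TPM, and a transcript also has its percent of its gene. The gene models there are GENCODE M4, per the deposited text files. On mm9, the deposited tables give RPKM of Ensembl release 65 genes, read counts per splice junction and the coverage of contigs, per the file contents. Aligner and quantifier: not given in the sources used here. Replicate numbers and embryonic day 14 are from the labels, which name separate biosamples, so spread is that between 2 pools of littermates.

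Symbols, positions and sequences came from GENCODE M21 on mm10 by stable identifier, and 42462 of 43346 genes had a symbol. Exons of the mm9 junction table were matched to M21 by length and by their distance to other exons of the gene, which was shared by 19 of 23 exons compared in Robo2 and by all of those compared in Slit2 (19), Robo1 (27) and Srgap3 (22). A total of 97 spike-in or control sequences and 26248 features named by number (1 and 5 counts) were left out of library sizes. The spike-ins held 3.11% and 2.66% of counts.

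Expected counts were rounded and scaled with edgeR 4.0.16 (TMM, log2 CPM with a prior count of 1). The calculation of the ratio was checked on simulated counts of the 14340 genes of this comparison. Called at 2-fold were 100 of 100 genes changed 4-fold, 50 of 100 changed 2-fold, which lie on the threshold, and 0 of 14140 unchanged genes. The simulated spread was set in advance and not taken from these libraries, where 4.24% of the genes were at least 2-fold apart. The simulation thus gives no error rate for calls in these libraries. For a gene without counts the upper limit is 3 counts, which equals 0.0301 CPM in replicate 1 and 0.0223 CPM in replicate 2. Alternatives used DESeq2 1.42.0 size factors, library size, other prior counts, TPM scales, filters, thresholds and single replicates or fields. R 4.3.3, Python 3.11.15 and scipy 1.17.1 were used. The members and lists were chosen with earlier results of these data known. Named are all 10 members, the highest and lowest gene of each partner list and any 2-fold apart (1 gene that this names is not reported here), and transcripts that lead or hold at least 10% in both replicates. Marker lists are given as sums, with a few of their genes named.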

Additional observations from a re-analysis of the deposited data

How the results depend on the processing

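All 10 members stayed detected at 0.5 TPM and in either replicate alone, and 8 did at 5 TPM, without Slit3 and Robo4. The receptor share of the 10 genes' level, 46.0%, was 38.4% in TMM-scaled CPM, which is not per length, 42.4% over transcripts of at least 2000 nucleotides and 51.4% in median junction reads. The ligand share, 16.1%, was 13.8% in that CPM. The Srgap share, 37.9%, was 47.8%, 40.9% and 32.5% in the same 3 settings. Leaving out a replicate gave 44.0 to 47.9% for receptors, 15.3 to 17.0% for ligands and 36.8 to 39.0% for Srgaps. The settings of transcripts of at least 2000 nucleotides and of median junction reads were chosen after seeing the data.

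The log2 ratio of Robo2 over Robo1 levels, 0.70, turned to -0.23 in that CPM, -0.062 over long transcripts and -0.45 in junction reads. In mm9 RPKM it stayed at 0.73. The count of members 2-fold apart, 1, was 0 on the log2(TPM + 1) scale. Genes with 1 transcript over 50% numbered 5 by TPM and 8 by expected counts. Alternative exons numbered 7, and 8 in either field alone. The value for Robo3 intron 26, 31.2%, was set beside 79.8% spliced in the transcript tables, a different measure. Coverage inside that intron was not run, since 1 contig spans it. No paired analysis was possible because there is 1 group. With 2 libraries, neither differences between replicates nor those between fields can be tested, and depth limits Robo4 most.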

Other observations

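Several strongly used splice sites of the receptors are not in the annotation of the mm9 tables. In Robo1, an acceptor 165 nucleotides inside an annotated exon took 557 of 1323 reads, or 42.1% (exact interval 39.4 to 44.8%), with 43.1% in field 1 and 41.2% in field 2. Another, 9 nucleotides before an annotated acceptor, took 15.8% (12.8 to 19.2%). No M21 transcript of Robo1 has an exon that starts at either. In Robo3, acceptors 110, 80 and 3 nucleotides from an annotated one took 31.6%, 11.5% and 12.1%. In Robo4, 2 annotated acceptors 21 nucleotides apart shared 81 reads, with 39.5% (28.8 to 51.0%) at the minor one.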
